A study of Mus musculus with 8 samples.

Results

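Internal alternative promoters of protein-coding genes were taken from clusters of capped RNA 5′ ends mapped by CAGE-seq in mouse embryonic stem cells (mESCs). A cluster was counted as an internal promoter when its dominant transcription start site (TSS), the most used base of the cluster, lay within 500 bp of a same-strand transcript start annotated inside a coding gene. It also had to lie more than 500 bp downstream of the 5′-most annotated start of that gene and of every other coding gene on that strand. In wild-type E14 cells 4549 of 32857 clusters met this rule (13.8%, 95% Wilson interval 13.5 to 14.2). The count was 4546 of 33005 clusters in DKO clone A1 and 4563 of 32870 in DKO clone C7, so the share was between 13.8% and 13.9% in each line.

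The lines were E14 wild-type mESCs and 2 clones derived from E14, A1 and C7, in which both Pwwp2a and Pwwp2b were knocked out (DKO). All 3 lines were grown on gelatine in medium with foetal calf serum and LIF, and capped ends were read from nuclear RNA. PWWP2A and PWWP2B bind histone H3 trimethylated on lysine 36, a mark of transcribed gene bodies, as part of a histone deacetylase complex. The comparison of wild type with DKO asks where transcription starts when that complex is missing, and here it is asked of annotated internal starts.

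The deposited clusters give positions only. The libraries of a line were merged by the authors before clusters were called (3 for E14, 2 for A1 and 3 for C7), and the score of every cluster is 0. Each line is therefore 1 sample, no tag counts or depth can be read, and no difference between lines has a test. A cluster listed in one line and absent from another may differ in level or in depth, and these cannot be told apart. Intervals around shares are 95% Wilson intervals, which cover counting error only. Each knockout line is a single clone, so clone and genotype cannot be told apart within a line. All 10 embryonic stem cell markers checked, among them Pou5f1, Nanog and Sox2, had a cluster within 500 bp of an annotated start in each line. Of 8 fibroblast markers 4 were present in E14 and 5 in each clone, with Col3a1 found in the clones and not in E14. In each line clusters were also found at 2 of 6 primitive endoderm markers (Sox17 and Sox7). The same held for 1 of 6 trophoblast markers (Tfap2c) and 1 of 6 neural and mesoderm markers (Sox1). Pwwp2a had a cluster at its first start in all 3 lines with the same dominant TSS, Pwwp2b had no cluster in any, and neither gene held an internal promoter. A cluster without a level does not check the knockout.

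Many mammalian genes begin transcription at more than one place. An alternative promoter inside a gene can add a different 5′ untranslated exon before the same start codon, or can skip the first coding exons so that a shorter protein is made. Most mammalian initiation starts on a purine that follows a pyrimidine, the initiator step, and CpG-rich promoters typically spread initiation over many neighbouring bases, whereas promoters with a TATA box focus it.

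Bases around internal promoters are shown first because the 2 kinds of start in this class differ at the dominant TSS itself. Each line runs 5′ to 3′ on the gene's strand from 40 bases before the E14 dominant TSS to 20 bases after it, and the capitals mark the base before the TSS and the TSS. Coordinates are mm10. The bases come from GENCODE M21 transcripts, or from RefSeq windows on GRCm38.p6 for Fgf4, Mest and Kdm2b. The first set has internal promoters of genes known for alternative promoters or for a role in mESCs, at which a pyrimidine preceded a purine.
Dnmt1, chr9:20952826-20952886 (minus strand): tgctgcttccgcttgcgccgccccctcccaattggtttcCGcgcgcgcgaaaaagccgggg
Dnmt3a, chr12:3891740-3891800 (plus strand): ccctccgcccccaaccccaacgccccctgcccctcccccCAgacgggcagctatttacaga
Kdm2b, chr5:122900337-122900397 (minus strand): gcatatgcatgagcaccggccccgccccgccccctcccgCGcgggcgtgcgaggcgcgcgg
Gnas, chr2:174330049-174330109 (plus strand): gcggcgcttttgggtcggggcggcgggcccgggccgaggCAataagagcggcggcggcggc
Mest, chr6:30738013-30738073 (plus strand): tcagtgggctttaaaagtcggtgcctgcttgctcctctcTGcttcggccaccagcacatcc
Cdkn1a, chr17:29093735-29093795 (plus strand): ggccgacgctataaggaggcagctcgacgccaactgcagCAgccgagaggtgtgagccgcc
Fgf4, chr7:144861346-144861406 (plus strand): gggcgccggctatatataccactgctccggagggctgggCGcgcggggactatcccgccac
Dppa2, chr16:48310437-48310497 (plus strand): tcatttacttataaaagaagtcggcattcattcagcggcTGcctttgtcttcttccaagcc
Nr5a2, chr1:136949153-136949213 (minus strand): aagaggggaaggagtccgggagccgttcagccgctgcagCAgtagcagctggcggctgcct
Tpm1, chr9:67043742-67043802 (minus strand): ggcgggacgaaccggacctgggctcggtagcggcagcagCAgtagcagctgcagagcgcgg

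The second set has internal clusters inside coding exons of genes for transcription and chromatin factors and of the abundant translation factor Eef1a1. The clusters shown are ones with a G before the dominant TSS, which 72.8% of internal clusters in coding sequence had in E14. Other such clusters of the same genes had none, such as that of Eef1a1 at 78479069 (TA) and that of Chd4 at 125114026 (AG).
Pou5f1, chr17:35509162-35509222 (plus strand): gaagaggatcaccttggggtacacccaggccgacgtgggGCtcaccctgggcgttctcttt
Tet1, chr10:62879870-62879930 (minus strand): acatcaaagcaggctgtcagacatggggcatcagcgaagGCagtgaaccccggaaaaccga
Mybl2, chr2:163074599-163074659 (plus strand): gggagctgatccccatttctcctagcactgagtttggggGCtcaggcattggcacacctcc
Chd4, chr6:125113481-125113541 (plus strand): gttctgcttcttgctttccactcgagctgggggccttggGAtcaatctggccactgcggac
Psip1, chr4:83465097-83465157 (minus strand): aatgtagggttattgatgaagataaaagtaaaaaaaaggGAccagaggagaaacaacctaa
Setd2, chr9:110602194-110602254 (plus strand): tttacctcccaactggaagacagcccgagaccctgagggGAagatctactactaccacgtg
Eef1a1, chr9:78480395-78480455 (minus strand): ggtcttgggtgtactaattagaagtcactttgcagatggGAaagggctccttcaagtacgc

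A large part of the coding genes with any CAGE cluster held an internal promoter. In E14 these were 2460 of 11266 genes (21.8%, interval 21.1 to 22.6), and 2442 genes held one in all 3 lines. A single internal promoter was found in 1495 genes, whereas 90 genes held 6 or more and Atrx, which encodes a chromatin remodeler, held 23. Internal promoter is here the name of the rule and not a finding about each cluster. Read against the longest coding sequence of the gene, 20 of the 23 Atrx members lay in coding sequence. In genes with 6 or more members 48.2% of them did. The median distance from the first annotated start of the gene was 5463 bp (quartiles 1158 to 23568). Distances up to 1 kb made up 22.0% of members, 39.3% lay between 1 and 10 kb, 38.7% lay beyond 10 kb, and 288 clusters lay more than 100 kb downstream.

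Internal promoters were concentrated at the annotated starts well inside the 500 bp limit. In E14 the median absolute offset between dominant TSS and annotated start was 36 bp, 2580 of 4549 clusters (56.7%) were within 50 bp, 1251 were within 10 bp and 389 were on the annotated base. The bin from 0 to 49 bp downstream of the start held 1443 clusters and the bin from 50 to 1 bp upstream held 1127, compared with 295 and 231 in the next bins on either side. At the limit of the rule the counts were flat. Just inside it, at offsets of 451 to 500 bp, there were 114 clusters, and just outside, at 501 to 550 bp, there were 123.

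**Figure D1:**
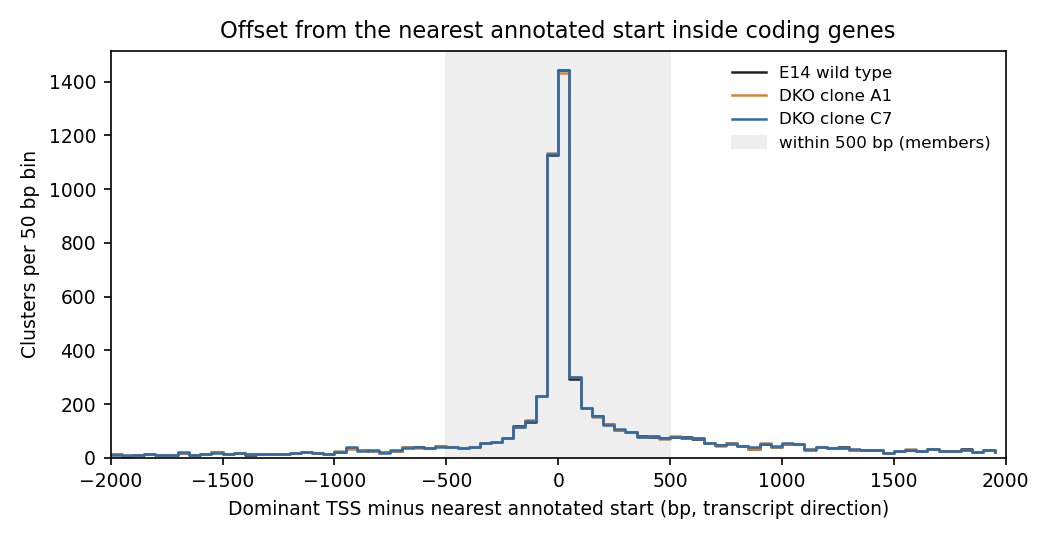
Number of clusters inside coding genes (y axis, per 50 bp bin) by the distance of the dominant TSS from the nearest annotated same-strand start (x axis, bp in the direction of transcription), 1 line per cell line. The 3 lines lie on each other, with 1443 clusters in the E14 bin just downstream of the start, and the shaded area marks the 500 bp of the rule.

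The annotated start nearest to an internal promoter was most often that of a coding transcript. In E14 the nearest start belonged to a protein-coding transcript for 2398 internal promoters (52.7%), to a retained-intron transcript for 1029 (22.6%), to a processed transcript for 583 (12.8%), to a transcript marked for nonsense-mediated decay for 314 (6.90%) and to another, non-coding gene for 224 (4.92%). Among those non-coding genes snoRNA genes were the most common, with 111 clusters. The best annotation support, level 1, was held by 1749 of the starts (38.4%).

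Seen from the annotation, most internal starts had no cluster in mESCs. Of 47462 annotated internal starts 9.24% had a dominant TSS within 50 bp in E14, compared with 30.5% of the 21951 first starts of coding genes. Among internal starts the share was 14.9% for coding transcripts and 14.8% for nonsense-mediated decay transcripts, and their intervals overlapped. It was 5.82% for retained-intron transcripts and 5.36% for processed transcripts. Annotation support moved with use in each type. Starts of coding transcripts of support level 1 were used in 22.7% of cases and those of level 3 in 10.7%, and for retained-intron transcripts the shares were 10.2% and 2.29%.

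**Figure D2:**
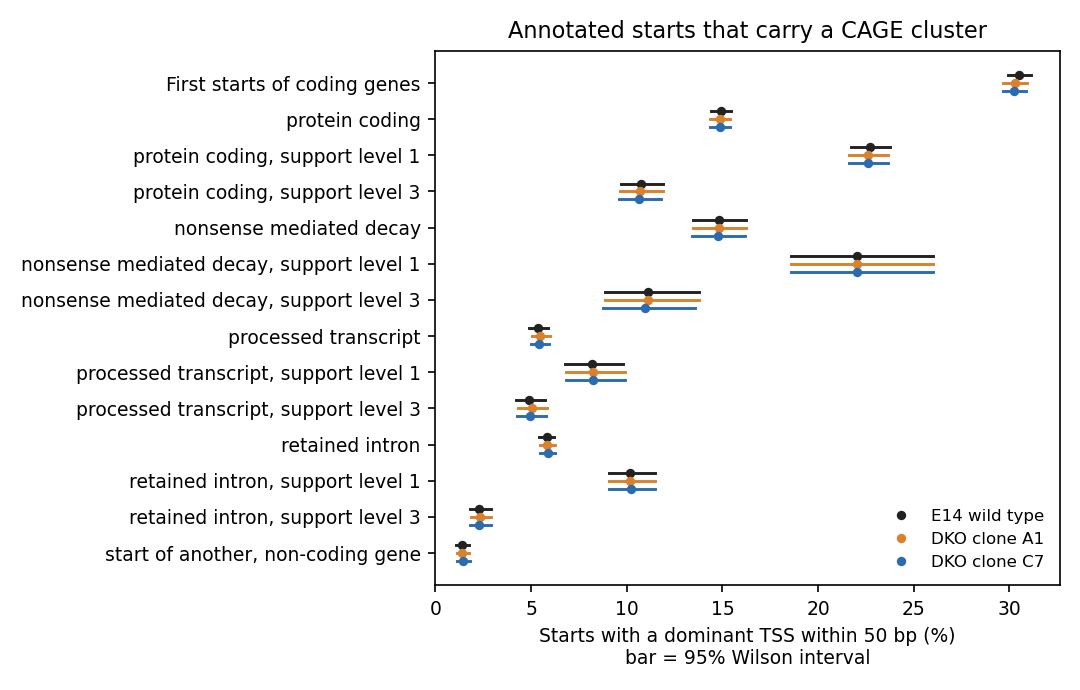
Share of annotated transcript starts with a dominant TSS within 50 bp (x axis, percent; points with 95% Wilson intervals), by type and support level of the transcript and by cell line. First starts of coding genes are at 30.5% in E14 and internal starts of coding transcripts at 14.9%, and starts with better annotation support are used more often in all 3 lines.

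In many genes with an internal promoter, no cluster was found at the first annotated start. In E14 this held for 1199 of 2460 genes (48.7%, interval 46.8 to 50.7), and 1180 genes were without one in all 3 lines. The E14 number was 869 when a cluster within 1000 bp of the first start was accepted, and 993 when first starts were taken over coding transcripts only. For these genes the most upstream internal cluster lay at the start of a coding transcript in 67.9% of cases and within 50 bp of its annotated start in 81.2%. The first transcript of such genes had support level 1 in 34.7% of cases, compared with 63.4% for genes with an internal promoter and a cluster at the first start, and 74.6% for all coding genes with a cluster at the first start. In these genes the word internal refers to the annotation, since no start upstream of the internal cluster was found at the first annotated start.

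The width of initiation placed internal promoters between the first promoters and the unannotated clusters within genes. Width is the interquantile width, the stretch that holds the part of the tags between the 0.1 and 0.9 quantiles. The E14 median was 15 bp (quartiles 4 to 31) for internal promoters, 23 bp (8 to 39) for clusters at first starts, and 3 bp (2 to 13) for sense clusters in coding genes with no annotated start within 500 bp. The same order was found on 20 of 20 chromosomes in each line. Clusters of 10 bp or less made up 42.3% of internal promoters, 28.6% of first promoters and 70.2% of the unannotated clusters, and these intervals did not overlap.

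Width fell with distance from the annotated start, which the rule did not use beyond its limit. The E14 median was 21 bp for offsets up to 10 bp, 18 bp for 11 to 50 bp, 12 bp for 51 to 100 bp and 8 bp for 101 to 500 bp. In genes without a cluster at the first start, the most upstream internal promoter had a median of 25 bp, next to the 23 bp of first promoters, and the other internal clusters of those genes had 12 bp. In genes with a cluster at the first start the internal clusters had a median of 11 bp. Paired within 1261 genes with both kinds, the median was 31 bp for the widest first cluster and 19 bp for the widest internal cluster. The internal one was narrower in 61.8% of these genes (interval 59.1 to 64.4) and wider in 37.0%.

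**Figure D3:**
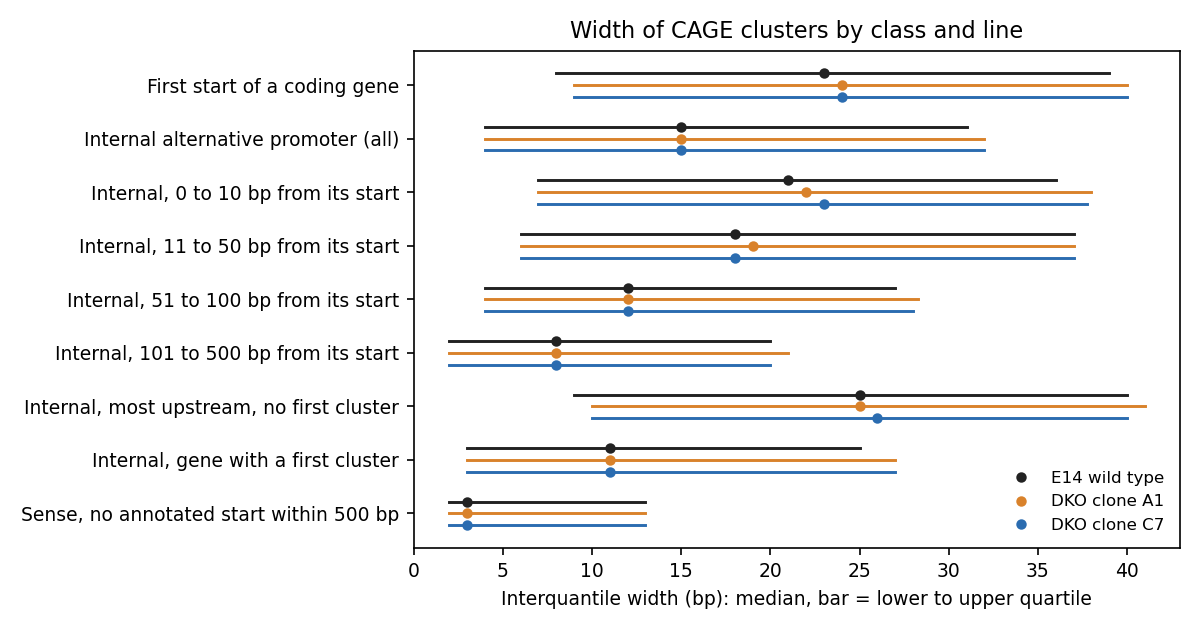
Interquantile width (x axis, bp; points are medians and bars run from the lower to the upper quartile) of clusters by class and cell line. In E14 the medians are 23 bp at first starts, 15 bp for all internal promoters, 25 bp for the most upstream internal cluster of genes with no first cluster, and 3 bp for clusters away from annotated starts.

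Where an internal promoter lies relative to the start codon decides which protein its transcript can encode. Against the 5′-most coding transcript of the gene, 2143 of 4549 E14 clusters (47.1%) lay upstream of the start codon, 1039 (22.8%) lay in coding sequence and 1108 (24.4%) in an intron after the start codon. The 5′-most coding transcript is a fragment in some genes, so positions were also read against the coding transcript with the longest coding sequence, a reference chosen after the data were seen. That reference gave 2072 clusters (45.5%) upstream of the start codon, 1170 (25.7%) in coding sequence and 978 (21.5%) in later introns, with 258 clusters upstream of the reference transcript itself. All positions below use it. Median width was 21 bp upstream of the start codon, 12 bp in introns after it and 8 bp in coding sequence. For the 1567 clusters within 50 bp of the start of a coding transcript, that transcript was also compared with the 5′-most coding one. It used the same start codon in 782 cases (49.9%), a downstream start codon in 421 (26.9%) and an upstream one in 152, and in 111 it was that transcript itself. These counts depend on the reference. Against the longest coding sequence the start codon was the same in 719 cases, downstream in 366 and upstream in 35. In 346 cases the transcript was that reference itself.

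The base before the dominant TSS separated the clusters upstream of start codons from those in coding sequence. Sequence was available for 3929 of the 4549 internal clusters of E14 (86.4%). A pyrimidine preceded a purine in 57.3% of them (interval 55.7 to 58.8), compared with 80.2% at first starts. Upstream of the start codon the share was 79.2%, close to that of first promoters, whereas in coding sequence it was 13.2%. There a G preceded the TSS in 72.8% of 1167 clusters (interval 70.2 to 75.3), compared with 9.88% (8.60 to 11.3) upstream of the start codon. In coding sequence the most common steps, written as the base before the TSS and the TSS, were GA (27.3%), GG (17.2%), GT (14.3%) and GC (14%). Upstream of start codons they were CA (36.7%), CG (16.9%), TG (15.3%) and TA (10.3%).

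This split was also present among wide clusters and among those close to an annotated start. In coding sequence G came before the TSS in 67.1% of clusters wider than 10 bp and in 66.6% of clusters within 50 bp of the annotated start. Over all positions the initiator step was found in 73.2% of clusters within 50 bp of the start and in 34.8% of those farther away, and in 20.9% of clusters 1 to 2 bp wide and 67.6% of those over 10 bp. It was found in 75.3% of internal clusters in genes without a first cluster and 42.0% in genes with one. By type of transcript it was 70.4% at coding starts and 39.4% at retained-intron starts. The clones gave like values, with G in 70.6% of the coding-sequence clusters and 10.8% of the upstream ones in C7. In introns after the start codon sequence covered 67.0% of clusters, which is too few for a share. Sequence covered only 61.7% of the unannotated sense clusters in coding genes of E14, too few to describe that class. Among the 4178 with sequence a G preceded the TSS in 72.4%, so this base was not particular to internal clusters in coding sequence.

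**Figure D4:**
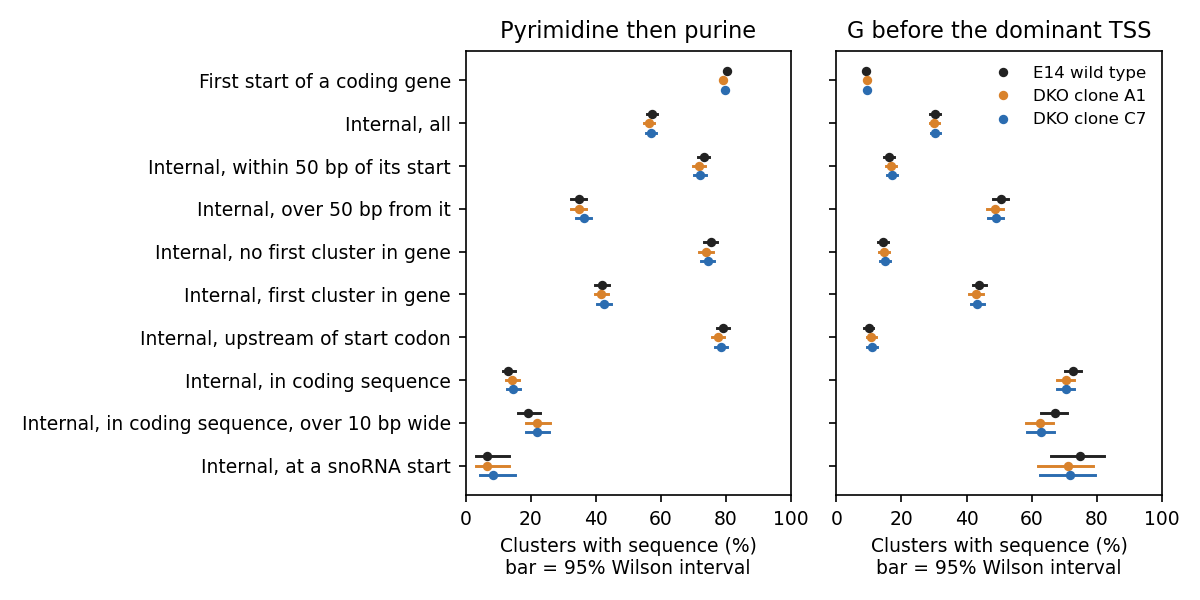
Share of clusters with a pyrimidine before a purine at the dominant TSS (left) and with a G before it (right), in percent of clusters with sequence and with 95% Wilson intervals, by class and cell line. Internal clusters upstream of the start codon sit next to first promoters (79.2% and 80.2% in E14, left). On the right, those in coding sequence are at 72.8% and those at snoRNA starts at 75% in E14.

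The promoters that contain these starts resembled those of first starts in base composition. RefSeq windows from 250 bases before to 50 after a gene's start matched 1012 internal starts with an E14 cluster within 50 bp. Their median GC content was 63.0% and their median CpG ratio, observed over expected, was 0.773, compared with 62.0% and 0.812 for 6324 first starts with a cluster. For 3854 internal starts with no cluster the values were 50.0% and 0.271, and over all 32817 windows they were 52.7% and 0.383. A ratio of at least 0.6 with GC of at least 50% was reached by 72.1%, 79.1%, 20.4% and 33.4% of these groups. Searched on both strands, GGGCGG, the GC box bound by Sp factors, was in 71.0% of used internal windows, 71.6% of used first windows, 27.8% of unused internal windows and 35.6% of all windows. CCGGAAG, a core of ETS factor sites, was in 16.5%, 24.0%, 3.79% and 8.86%. CCAAT before the start on either strand was in 36.6%, 40.6%, 29.9% and 33.8%. TATAAA 20 to 40 bases before the start was rare in every group, at 1.09% of used internal windows, 1.14% of used first windows and 1.87% of all windows. Only 1063 internal clusters (23.4%) lay within 50 bp of a RefSeq start, so these windows describe the better annotated part of the class.

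Genes known for alternative promoters held members most often among the lists examined. Of 39 such genes with any cluster 31 (79.5%) held an internal promoter, and 20 of the 31 had no cluster at the first annotated start. For 30 pluripotency genes the number was 12, for 28 genes of the PWWP2 complex, NuRD and the H3K36 methylation pathway it was 13 (46.4%), for 35 hnRNP and SR splicing factor genes 20 (57.1%), and for 17 cytoskeletal linker genes 12 (70.6%). The value over all coding genes with any cluster was 21.8%. These lists were not drawn at random, and genes with more annotated starts have more chances to hold a member. The lists also differed in where their internal clusters lay. In coding sequence were 8 of 110 clusters of the known alternative promoter genes (7.27%), 1 of 50 of the linker genes, 19 of 52 of the pluripotency genes (36.5%), 19 of 44 of the PWWP2, NuRD and H3K36 genes (43.2%) and 58 of 93 of the splicing factor genes (62.4%), against 25.7% of all internal clusters.

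Among DNA methylation genes, Dnmt3a, a de novo methyltransferase, had internal starts at the promoter known for its short isoform in mESCs. The cluster at chr12:3891780-3891796 had its dominant TSS at 3891780 and a width of 17 bp in each of the 3 lines. It lay 85773 bp from the first annotated start, in an intron after 209 of 908 residues, and a neighbour with its dominant TSS at 3891824 was 7 bp wide in each line. The farthest upstream Dnmt3a member, 557 bp from the first start, was also 17 bp wide in each line. A 2 bp cluster in coding sequence was present in E14 and C7 and absent from A1. No line had a cluster at the first annotated start of Dnmt3a. The same was true of Dnmt1, the maintenance methyltransferase, whose internal cluster was 52 bp wide with its dominant TSS at 20952846 in all 3 lines, 7042 bp downstream and before the start codon.

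Tet1 and Tet3, dioxygenases that oxidize 5-methylcytosine, had no first cluster either. Tet1 held 13 internal clusters in each line, 8 upstream of the start codon of the 2039-residue protein and 5 in coding sequence. The most upstream, 9840 bp from the first start, was 27 bp wide in each line. A broad cluster with its dominant TSS at 62887424 was 98 bp wide in E14, 107 bp in A1 and 108 bp in C7. Those in coding sequence ranged from 1 to 33 bp in E14. Tet3 had a 20 bp cluster before its reference transcript in each line, and a second, after 101 of 1803 residues, that was 8 bp wide in E14, 27 bp in A1 and 30 bp in C7.

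The H3K36 demethylase genes Kdm2a and Kdm2b both held starts deep in the gene, besides clusters at their first starts. In Kdm2b the farthest member, 89466 bp downstream in an intron after 551 of 1309 residues, was 19 bp wide in E14 and A1 and 13 bp in C7. Its dominant TSS was at 122900357 in E14 and at 122900367 in both clones, 10 bp upstream on the minus strand. In Kdm2a 3 clusters lay about as far along, after 493 of 1161 residues, with dominant TSSs 64261 to 64413 bp from the first start, and the 27 bp and 4 bp ones kept width and dominant TSS in all 3 lines. For both genes a short isoform without the N-terminal demethylase domain is known.

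Imprinted genes and cell cycle inhibitors of the list held internal clusters in all 3 lines, and the dominant TSS of some of them differed between lines. Gnas, a complex imprinted locus that encodes the stimulatory G protein alpha subunit, held 9 clusters in each line. The one on the annotated base of a coding transcript, at 174330089, was 39 bp wide in E14 and 38 bp in each clone. Another, 43392 bp from the first start, was 36, 35 and 36 bp wide in E14, A1 and C7, and the dominant TSS was 174327712 in E14 and 174327727 in both clones. Mest, an imprinted gene, had a narrow cluster of 3, 3 and 4 bp, also on the annotated base. Grb10, which encodes an imprinted adaptor, held 2 clusters upstream of the start codon. The nearer to the first start was 12 bp wide in E14, 11 bp in A1 and 23 bp in C7 with the same dominant TSS, and the other was 11 bp in each line and had the dominant TSS 12037355 in E14 but 12037358 in both clones. Igf2, the imprinted growth factor gene, held 2 as well, of which the wider was 20 bp with the same dominant TSS in each line and the other was 3, 3 and 2 bp wide in E14, A1 and C7, with a dominant TSS of 142657480 in E14 and 142657479 in both clones.

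Cdkn1a, which encodes the inhibitor p21, had a 4 bp cluster in each line 2799 bp downstream of its first start and upstream of the start codon, whereas its first cluster was 32 bp wide in E14. Cdkn2a, whose p16 and Arf products start from separate first exons, had an 8 bp cluster in each line in an intron after 63 of 169 residues. Both are narrow beside the class median of 15 bp.

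Among structural genes of this list, internal starts after the first coding exons were found in the tropomyosins and in Dst. Tpm1, a tropomyosin, had clusters of 66, 67 and 66 bp and of 42, 46 and 47 bp in E14, A1 and C7, both after 122 of 326 residues. Tpm3 had 4 after 81 of 285 residues, 8 to 46 bp wide in E14. Dst, the cytolinker dystonin, held 6 in each line, all in introns after the start codon and 97463 to 271103 bp from its first start. Ank2, an ankyrin, held 4 in each line, the widest of which was 53 bp in E14 and C7 and 41 bp in A1, and had no first cluster. Lmna, the gene of lamins A and C, held 4 before the start codon, 2 to 23 bp wide in E14. Bdnf, the neurotrophin gene, held a single cluster of 3 bp in each line.

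The other genes of this list with internal promoters were spread over the same kinds. Those of Wtap, a subunit of the RNA methylation machinery, numbered 4 in each line, all before the start codon, and the widest was 55 bp in each line. Phf21a held 8 and the E protein gene Tcf4 held 7 in each line, with 7 and 6 of them before the start codon in E14. Macf1, a cytolinker, held 8 in each line, 7 of them in introns after the start codon and 1 in coding sequence. Mdm2, the p53 ubiquitin ligase, held 3 in E14 and A1 and 2 in C7, all before the start codon. In C7 a cluster at chr10:117710198-117710293 lay within 500 bp of the first start and was counted there as a first promoter. The lower count in C7 is therefore not in itself a lost cluster. Plec held 4, 29 to 49 bp wide in E14, Rbfox2 held 3 and Rassf1 held 2. Ank3, Nrg1, Ptch1, Runx1 and Trp73 held a single one in each line, of 45, 9, 26, 7 and 8 bp in E14.

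Among pluripotency genes the internal clusters fell into both kinds. Esrrb, an orphan nuclear receptor, had a cluster 108999 bp from its first annotated start that was 33 bp wide in E14 and 34 bp in each clone, with the same dominant TSS in all 3 lines, and no cluster at that first start. Fgf4, a growth factor, had its only one on the annotated base of its coding transcript, 5 bp wide in each line, 14019 bp downstream. Trim28, a corepressor, had clusters of 54, 56 and 54 bp and of 35, 35 and 34 bp in E14, A1 and C7 upstream of the start codon. None of these genes had a first cluster, and the annotated first start of each lay more than 10 kb upstream of these clusters.

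Nr5a2, another orphan receptor, held 5 in each line, and the one on the annotated base of a coding transcript was 24 bp wide in each. Sall4, a zinc finger factor, had 7 in each line. Its broadest, upstream of the start codon, was 72 bp in E14, 107 bp in A1 and 73 bp in C7. Dppa2 had a cluster on the annotated base with TATAAA in the bases before it, as its printed sequence shows, which was 11 bp wide in E14, 18 bp in A1 and 37 bp in C7 with the same dominant TSS. Jarid2, a partner of Polycomb complex PRC2, held 11 in each line, 10 of them before the start codon and the widest of these 114, 112 and 116 bp in E14, A1 and C7.

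Pou5f1, which encodes Oct4, held a single internal cluster, in coding sequence after 161 of 352 residues. It was 34 bp wide with its dominant TSS at 35509202 in each line, 381 bp from the nearest annotated start, and a G preceded that TSS. Rif1, a replication timing factor, held 14 in each line, all in coding sequence and 1 to 18 bp wide in E14, between residues 1346 and 1873 of 2426. Tbx3 held 2, of 9 and 15 bp in each line, Tdgf1 a single 2 bp cluster, and Mybl2 held 3 in E14 and a further 1 bp cluster in C7.

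In the genes of NuRD and of H3K36 methylation, promoters before the start codon and clusters in coding sequence were both present. Gatad2a, a NuRD subunit, had a broad cluster 22057 bp downstream and before the start codon, 102 bp wide in E14, 103 bp in A1 and 116 bp in C7. The dominant TSS was 69974327 in E14 and C7 and 69974401 in A1. Mbd3, another subunit, had a 31 bp cluster in each line in an intron after 90 of 285 residues. Cdk2ap1, a further subunit, had no first cluster and a cluster of 28, 28 and 30 bp before its start codon. Hdgfl2, a PWWP domain protein gene, had a 26 bp cluster in each line after 24 of 678 residues.

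Nsd1, an H3K36 methyltransferase, held 4 in each line, all before the start codon. The widest was 88, 88 and 86 bp in E14, A1 and C7, and the dominant TSS was 55211816 in E14 and C7 but 55211856 in A1. Nsd3, a related methyltransferase, had an 11 bp cluster in E14 and C7 that was 6 bp in A1, and a second of 1 bp in A1. In contrast, Chd4, the NuRD remodeler, held 12 clusters in E14, 10 of them in coding sequence, and Psip1, a PWWP domain reader of H3K36 methylation, held 5 in each line, all in coding sequence and 2 to 39 bp wide. Setd2, which trimethylates H3K36, held 2 in coding sequence, 9 and 2 bp wide in each line. Gatad2b held a 1 to 2 bp cluster after 244 of 594 residues.

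**Figure D5:**
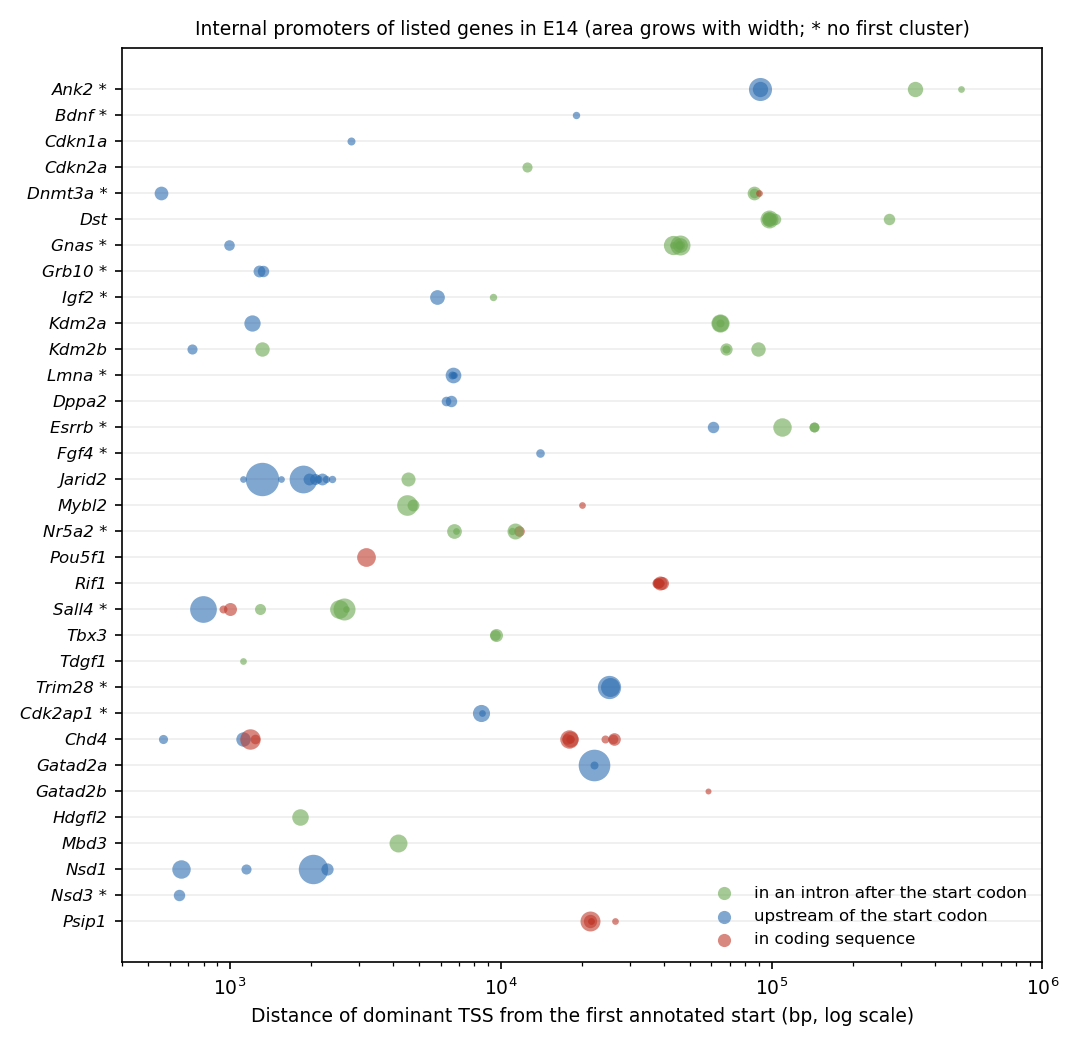
Internal promoters in E14 of the genes described in full from the 3 gene lists. The x axis gives the distance of the dominant TSS from the first annotated start of the gene (bp, log scale), the area of a point grows with its interquantile width, the colour gives its place relative to the start codon, and an asterisk marks genes with no cluster at the first start. Esrrb and Trim28 have their clusters far from a first start without a cluster, whereas the 14 clusters of Rif1 and the 5 of Psip1 all lie in coding sequence.

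The share of internal clusters in coding sequence was higher in genes with more of them. Genes with a single internal cluster had 14.6% of them in coding sequence and a median width of 20 bp, genes with 2 to 5 had 25.5% and 12 bp, and genes with 6 or more had 48.2% and 11 bp. Some genes of the last group had none there, among them Jarid2 with 11, Gnas with 9, Phf21a with 8 and Tcf4 with 7. The 10 genes with the most members in E14 together held 144, of which 109 (75.7%) were in coding sequence. These were Atrx with 23, the poly(A) binding protein gene Pabpc1 with 15, the splicing cofactor gene Srrm2 with 15, Eef1a1 with 14, Rif1 with 14, the chaperone gene Hsp90b1 with 13, nucleolin (Ncl) with 13, Tet1 with 13, beta-actin (Actb) with 12 and the ATP synthase subunit gene Atp5b with 12. In Atrx 20 lay in coding sequence, and in Hsp90b1 and Atp5b all did. In Tet1 8 of 13 were upstream of the start codon, and Actb had 5 of 12 in coding sequence, 3 upstream of it and 4 downstream of the stop codon. Chd4, Ddx5, Hsp90aa1, Hsp90ab1 and Taf1d also held 12 each, and ties were settled by symbol, so the set of 10 and its share rest on that order. Levels are not in the data, so the number of clusters could not be set against how strongly each gene is transcribed.

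The widest internal promoters in E14 were those of Dpy30, an H3K4 methyltransferase complex subunit, with 294 bp in E14, 308 bp in A1 and 316 bp in C7, and of the mitochondrial gene mt-Nd2 with 243, 240 and 247 bp. They were followed by Arid5b with 161, 162 and 146 bp, 1700019D03Rik with 159 bp in each line and the demethylase gene Kdm4c with 147, 144 and 134 bp. The mt-Nd2 cluster lies 279 bp before the annotated start of a transfer RNA on a genome that is transcribed as long polycistronic RNA, so it meets the rule without being a nuclear promoter. Among genes that also had a first cluster, the members farthest from the first start were in Gm20388, Fgfr2, Auts2, Etl4 and Camta1. In Gm20388 they reached 4038579 bp, and all of its members lay at starts of other genes within the annotated span. In Auts2 a cluster of 48, 38 and 48 bp lay 1004634 bp downstream at the start of a coding transcript, whereas the Fgfr2 cluster, 2857096 bp from its first start, was 2 bp wide in each line. The Camta1 cluster was present in E14 and C7 only.

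The set of listed internal promoters was nearly the same in the wild-type and DKO tracks. Clusters at the first starts of named genes mostly had the same limits in all 3 lines, such as 142906663 to 142906788 in Actb. The paper describes joining clusters into consensus peaks across replicates. Whether cluster limits were set jointly over the lines was not tested, so shared presence does not measure how alike initiation was. Clusters overlapping by at least 1 bp were joined across lines, which gave 4609 internal promoters, of which 4508 (97.8%, interval 97.3 to 98.2) were present in all 3 lines. Found in A1 and in C7 but not in E14 were 14 (0.304%), compared with 0.444% of all clusters of the genome. Present in E14 only were 10 (0.217%), compared with 0.228% of all clusters. Clusters found in A1 only numbered 16 (0.347%, compared with 0.651% of all clusters) and in C7 only 20 (0.434%, compared with 0.321%).

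Line-specific members were mostly very narrow. Among those in both clones and not E14, 7 of 14 were 1 bp wide, as were 8 of 10 in E14 only, 14 of 16 in A1 only and 19 of 20 in C7 only, compared with 1.82% of those in all 3 lines. Of the 14 found in both clones and not in E14, 7 lay in coding sequence, 6 in introns after the start codon and 1 upstream of it. Of the 10 found in E14 only, 7 lay upstream of the start codon and 1 in coding sequence. Members of a single clone were also often in coding sequence. These were 8 of the 16 in A1 only, with 6 upstream, and 8 of the 20 in C7 only, with 5 upstream. Among internal promoters of all 3 lines 51.3% lay upstream, counting those before the reference transcript as here, and 25.8% in coding sequence. These counts are small and rest on presence in merged libraries. Widths and positions of line-specific clusters outside the class are not given here.

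The gained clusters that were not 1 bp wide in both clones were in Bcl7a, a BAF remodeling complex subunit gene (18 bp, 764 bp from its first start and upstream of the start codon), Otud4, a deubiquitinase gene (17 bp), Srrm2 (15 bp, in coding sequence), the dynein gene Dnah1 (14 bp), the acetyl-CoA synthetase gene Acss1 (6 bp), the caldesmon gene Cald1 (6 bp, in coding sequence) and Rybp, a Polycomb PRC1 subunit gene (2 bp, in coding sequence). Narrower ones of 1 bp were in Faf1, Hsp90ab1, Krtcap2, Lamc1, Lsm4, Smarce1 and, as a second site, Srrm2. In E14 only, the ribosomal protein gene Rpl28 had an 11 bp cluster in coding sequence and Rab3il1 a 4 bp cluster. The rest, in Cpeb1, Gipr, Phka2, Rap1gap, Rsrc1, Tfpi, Thra and Zap70, were 1 bp wide.

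The dominant TSS of shared internal promoters stayed in place about as often as that of all clusters. This was less often than for first promoters and more often than for unannotated clusters. Of 4502 internal promoters with a single cluster in each line, 2961 (65.8%, interval 64.4 to 67.1) had the same dominant TSS in all 3 lines. The share was 71.0% (70.3 to 71.8) for first promoters, 61.2% (60.0 to 62.3) for unannotated clusters and 66.3% for all clusters. It had moved in both clones relative to E14 in 512 (11.4%), compared with 11.1% of all clusters, and to the same base in both in 371 (8.24%), compared with 8.47%. By at least 5 bp in both it had moved in 281 (6.24%), compared with 5.73%. Both clones were set against the same E14 track, so these counts share their reference. The 2 clones differed from each other at 26.0% of internal promoters, compared with 24.2% for E14 and A1 and 21.4% for E14 and C7. Over all clusters these shares were 25.2%, 23.7% and 21.1%. Where the TSS moved, the median distance was 6 bp in either clone.

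The largest shifts to the same base in both clones were within wide clusters. In Actb the dominant TSS was at 142903595 in E14 and at 142903662 in both clones, 67 bp upstream on the minus strand, in a cluster downstream of the stop codon that was 83, 83 and 79 bp wide. In Rhbdd3 it moved 58 bp downstream, from 5099380 to 5099438. This took the cluster from 454 to 512 bp from the first start, so in E14 it was counted as a first promoter. In Zbtb6, a zinc finger gene, it moved 55 bp downstream, and in Luc7l3, a splicing factor gene, 53 bp upstream within coding sequence. In Prr14 it moved 53 bp upstream, from 127471529 to 127471476, before the start codon.

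More internal promoters were wider than narrower in the clones, as in the genome at large. Wider in both clones than in E14 were 565 (12.6%), compared with 12.5% of all clusters, and narrower in both were 212 (4.71%), compared with 3.99%. With a change of at least 5 bp in both clones, 204 (4.53%) were wider and 70 (1.55%) narrower, compared with 3.84% and 1.38% of all clusters. The median difference was 0 bp in either clone. The share wider in both clones was 7.29% for E14 widths of 1 to 2 bp, 5.44% for 3 to 10 bp, 14.2% for 11 to 30 bp and 20.9% for 31 bp or more, and over all clusters 8.19%, 6.28%, 13.2% and 21.8%. The share narrower in both clones was 0.138%, 2.68%, 4.42% and 9.92% in the same bins, compared with 0.244%, 1.73%, 3.89% and 9.61% of all clusters.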

How the data were processed

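CAGE-seq libraries were made by the authors from nuclear RNA with a protocol without PCR. They aligned reads to mm10 with STAR 2.4.2a, keeping unique alignments, pooled the libraries of a line and called clusters with CAGEr after power law normalization. The deposited file has 3 tracks (E14, A1, C7) of cluster positions, blocks for the interquantile region and the dominant TSS in column 7, in units of genome coordinates (unit other) with a score of 0 throughout, so no count, level or depth was used.

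Annotated starts were taken from GENCODE M21. Clusters were classed by the dominant TSS, joined between lines at a minimum overlap of 1 bp, and described as shares with 95% Wilson intervals. No p-value was computed, since each line is 1 merged sample. The scripts (Python 3.11.15, NumPy 2.4.6, Matplotlib 3.10.9) were tested on simulated data. Sequences came from GENCODE transcripts and RefSeq windows. No share is given where fewer than 80% of clusters had sequence, except for the unannotated clusters, where it covers only those with sequence.

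The members, gene lists and alternatives were chosen with earlier results of these data known. Named were all genes with a member in the lists of known alternative promoter, pluripotency and PWWP2, NuRD and H3K36 genes, with up to 12 per list in full (coding starts first, then by symbol). Also named were the 10 genes with the most members, the 5 with the farthest, the 5 largest shifts alike in both clones and the 5 widest. The genes with members gained in both clones or found in E14 only were named as well. No columns of other samples were present.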

Additional observations from a re-analysis of the deposited data

How the results depend on the processing

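Of 84 alternative values 49 stayed close to the reported one and 35 moved. The number of internal promoters stayed within 1.5 times of the reported one in every setting tried, from 3223 in E14 with starts of coding transcripts only to 5797 with a window of 100 bp. The median width of 15 bp was 21 bp in each line with a window of 100 bp, 12 bp with 1000 bp, 18, 18.5 and 19 bp (E14, A1, C7) with starts of coding transcripts only, 17, 18 and 18 bp with support level 1 or 2, and 19, 19 and 20 bp for clusters at least 3 bp wide. The whole cluster in place of its interquantile region gave 19 bp in each line. Internal promoters in both clones and not E14, 14 in the report, numbered 6 with starts of coding transcripts only, 9 with support level 1 or 2, 30 with A1 alone and 34 with C7 alone. With a minimum width of 3 bp they numbered 49, and those in E14 only numbered 15. At that setting narrower clusters of any line count as absent by construction. Those in E14 only, 10 in the report, numbered 8 with starts of coding transcripts only and 9 with support level 1 or 2. They numbered 37 against A1 alone and 24 against C7 alone. The report has more gained in both clones than in E14 only. That order was reversed with starts of coding transcripts only and with A1 alone, and the counts were equal with support level 1 or 2. Asking for a shift of at least 5 bp lowered the share with a moved dominant TSS in both clones from 11.4% to 6.24%. Counting any annotated start within the window raised the share at coding transcripts to 70.9%, 70.8% and 70.7% in the same order of lines. With the longest coding sequence as reference, added after the data were seen, the share upstream of the start codon was 45.5%, 45.4% and 45.3% and that in coding sequence 25.7%, 25.9% and 26.0% in E14, A1 and C7. No paired analysis was possible because the libraries of a line were merged before deposit, and for the same reason no single replicate could be left out.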

Other observations

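Some internal clusters lay at annotated starts of snoRNAs, small RNAs that are processed out of introns of host genes. Most of these are themselves among the internal clusters in coding sequence. Their values below are therefore not independent of the values of that class. In E14 there were 111 of them in 43 host genes, with a median width of 6 bp, compared with 8 bp for all internal clusters in coding sequence. The dominant TSS was within 5 bp of the snoRNA start in 11, inside the snoRNA in 11, upstream of it in 62 and downstream of its end in 38, and it lay in coding sequence of the host gene in 76. The initiator step was found in 6.73% of the 104 with sequence, and a G preceded the TSS in 75% (interval 65.9 to 82.3), compared with 72.8% of all internal clusters in coding sequence. In A1 there were 110 and in C7 112, in 43 host genes each. Most of this group therefore lay in neighbouring coding exons of the host and not on the small RNA itself.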
